A study of Mus musculus with 2 samples.

Results

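The axon guidance genes of mouse lymph node stroma were read from 2 one-color arrays. The set holds the semaphorins and their plexin receptors, the ephrins and Eph receptors, the Slits and their Robo receptors, and the netrins and their Unc5 receptors. Members were taken by gene symbol, whatever their values, and grouped by family, with 4 semaphorins known from lymphocytes (Sema4a, Sema4b, Sema4d and Sema7a) kept apart. This gave 66 of the 37008 gene names on the array, read by 152 of its 56605 probes. Of the 66 genes, 62 were above background on both arrays, Epha5 was so on the normal array alone, and Sema3e, Epha10 and Unc5d were so on neither.

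The 2 groups were tumor-draining lymph nodes and normal lymph nodes, with 1 array each. Tumor-draining nodes came from female C57BL/6 mice 2 weeks after the 4T1 mammary carcinoma was placed in the mammary gland, and normal nodes from female mice without a tumor. 4T1 is a mouse breast cancer line of BALB/c origin, which is not the strain given for these mice. Both samples were sorted as cells without CD45, the surface protein of leukocytes encoded by Ptprc, and the labels do not say how many mice were pooled. With 1 array in each group, differences between mice are unmeasured and no p-value is given. A gene is called higher or lower where its signal differed by at least 2-fold, which is 1 on the log2 scale, after each array was scaled to its 75th percentile. Signals below are the processed intensities before that scaling, and they are compared between arrays, not between genes. Sums over marker lists add up the signals of several probes, so that the brightest weigh most.

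Guidance molecules were first described as cues that attract or repel growing axons. Semaphorins signal through plexins, the secreted class with neuropilins as co-receptors. Ephrins and Eph receptors are both held on cell surfaces and signal into both cells at a contact. Slits bind Robo receptors, and netrins bind Dcc, neogenin and the Unc5 receptors. The same molecules pattern blood and lymphatic vessels and nerves in peripheral tissue, and some semaphorins act between lymphocytes.

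Most guidance genes had lower signal on the tumor-draining array. Of the 63 members above background on at least 1 array, 39 (61.9%) were lower, 6 (9.52%) were higher and 18 lay within 2-fold. Over all 24656 genes measured in the same way, 16.5% were lower and 11.5% were higher. The median log2 difference of the members was -1.52, against 0.10 over all genes. Ligands and receptors had the same direction of median, with 18 of 34 ligands lower and 3 higher (median -1.24) and 21 of 29 receptors lower and 3 higher (median -1.80). In a sorted population, fewer cells of a type and less RNA per cell cannot be told apart.

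**Figure D1:**
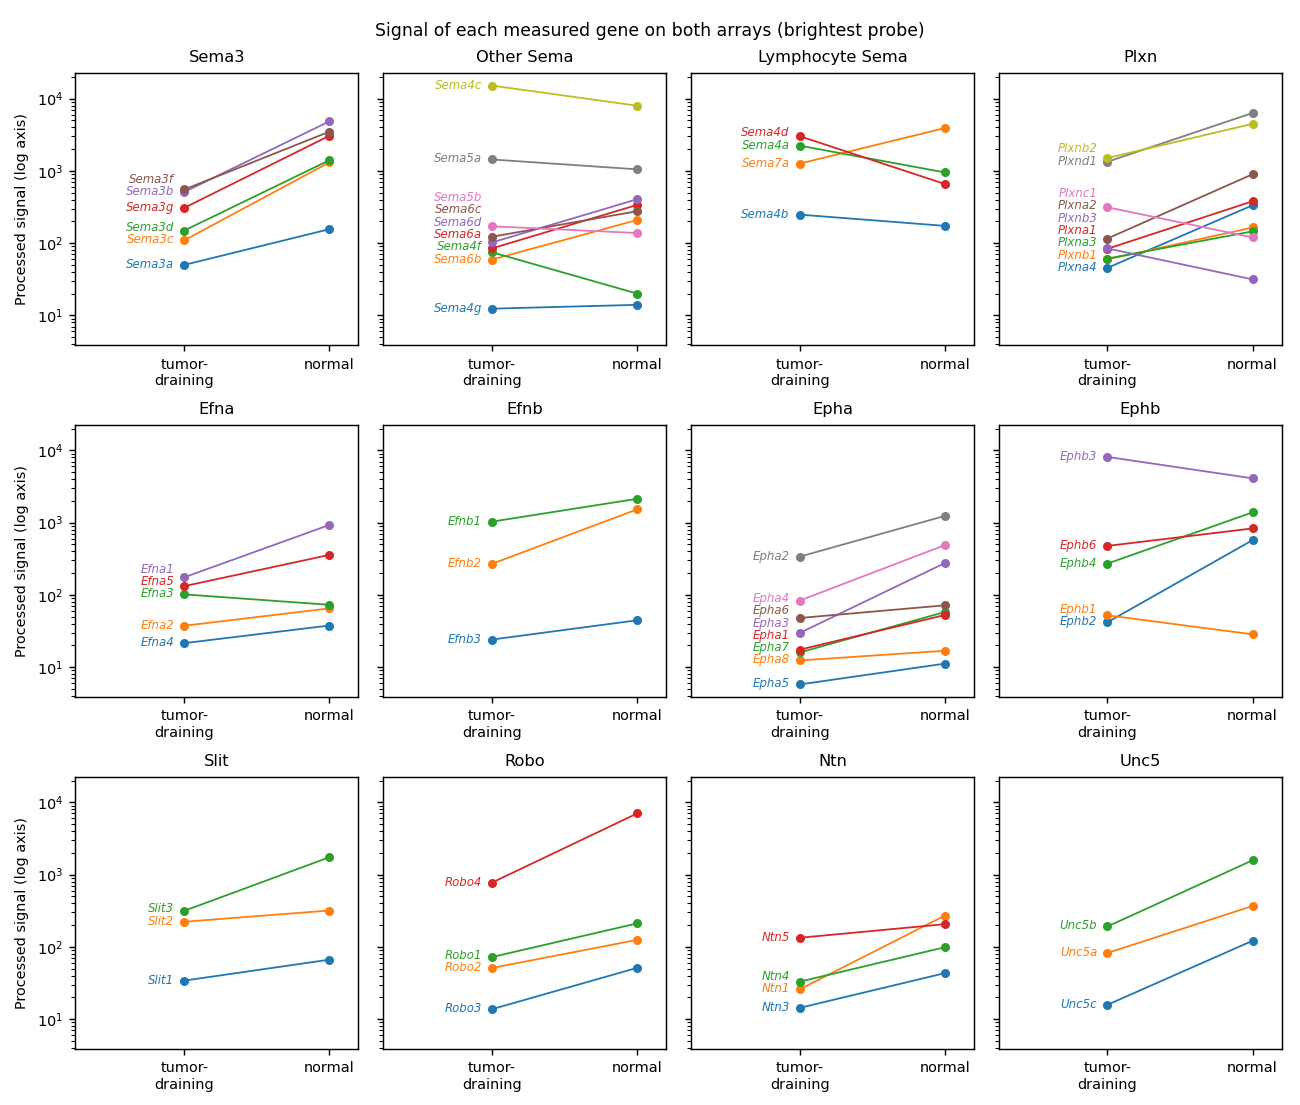
Processed signal (log axis) of each measured gene on the tumor-draining array (left) and the normal array (right), 1 panel for each family group and 1 line for each gene, read by its brightest probe. Every gene of the class 3 semaphorins, the Robo receptors and the Unc5 receptors is lower on the tumor-draining side, while Sema4d and Sema4a are higher there.

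Marker genes of the cell types in a lymph node also differed between the arrays. Ptprc, the gene of the antigen used to deplete leukocytes, had a signal of 17432 on the tumor-draining array and 3702 on the normal array. All 8 pan-leukocyte markers were higher in tumor-draining cells, with a summed signal of 109036 in tumor-draining against 30247 in normal cells, as were 9 of 10 T cell markers (75319 in tumor-draining against 17272 in normal cells) and 7 of 9 B cell markers (64882 in tumor-draining against 27436 in normal cells). Markers of stroma were lower: 12 of 13 for fibroblastic reticular cells (summed signal 123027 in tumor-draining against 330027 in normal cells), 12 of 12 for blood endothelium (8440.4 in tumor-draining against 66833 in normal cells), 7 of 7 for lymphatic endothelium (7684 in tumor-draining against 38964 in normal cells) and 7 of 8 for pericytes and smooth muscle (16291 in tumor-draining against 49116 in normal cells). Most of the lymphatic sum is Ccl21a (6278 in tumor-draining against 32474 in normal cells), which is also on the fibroblastic reticular list. The blood endothelial list includes Robo4, a guidance gene. Of 13 Schwann cell and nerve markers measured, 8 were lower and 1 was higher. Their summed signal was 6804 in tumor-draining against 14689 in normal cells. Mbp, the 1 higher gene, made up most of the tumor-draining sum (4395 in tumor-draining against 1599 in normal cells). Its probes above background on both arrays lay between -0.84 and 1.52. Of 7 macrophage and dendritic markers 2 were higher and none lower (median 0.55), although the summed signal was 9291 in tumor-draining against 11816 in normal cells. Most of that sum is Itgam (5604 in tumor-draining against 9252 in normal cells), whose probe holds a CA run of 20 bases, a kind of probe described below. Of 6 mammary epithelial markers 2 were higher (7605 in tumor-draining against 4799 in normal cells). None of the stromal or leukocyte markers was below background on both arrays, and of the nerve markers only Nefl was. Their part in the differences of the guidance genes was not tested.

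**Figure D2:**
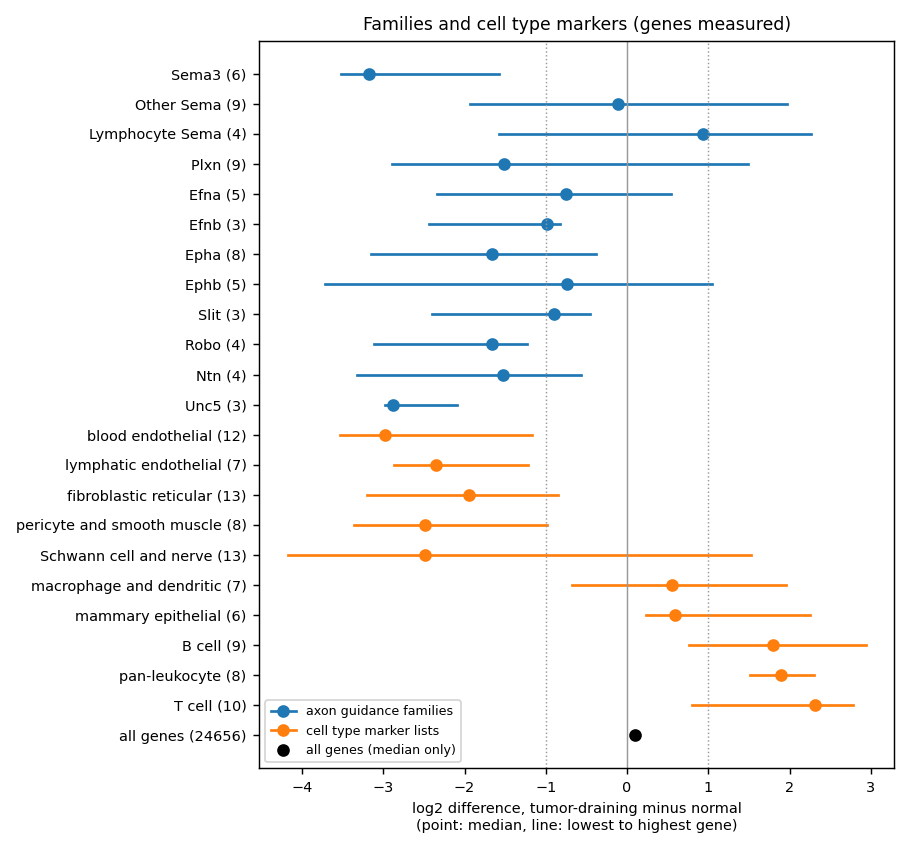
Median log2 difference, tumor-draining minus normal, of each guidance family and each marker list (points), with the lowest and highest gene of each as a line, over genes above background on at least 1 array. The Sema3 median (-3.18) and the Unc5 median (-2.88) lie near that of blood endothelial markers (-2.98), a list that includes the member Robo4. The lymphocyte semaphorins (0.94) lie between the members as a whole and the T cell markers (2.31). With scaling to spike-in RNA the medians of Efna, Ephb and the other semaphorins lie above 0.

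The class 3 semaphorins, secreted proteins that bind neuropilins, had the lowest family median (-3.18), and all 6 measured members were lower. Sema3c, a cue for neural crest and vessel development, had a signal of 109 on the tumor-draining array and 1309.6 on the normal array (log2 difference -3.52, 11.5-fold lower). It was read at bases 17235981 to 17236040 of chromosome 5 (mm9), and a second probe gave -1.91. Sema3g, known from endothelium, had 307 in tumor-draining and 3057 in normal cells (-3.25), and its second probe gave -2.93. Sema3b and Sema3f are neighbouring genes on chromosome 9 that were first studied as tumor suppressor candidates in human lung cancer. Sema3b had 509.5 in tumor-draining cells and 4843 in normal cells (-3.19), and Sema3f had 552 in tumor-draining and 3486 in normal cells (-2.60, with -2.59 from its second probe). Sema3d had 149 in tumor-draining and 1402 in normal cells (-3.17). Sema3a, the founding repellent of the class and the smallest difference of the 6, had 49.9 in tumor-draining and 155.7 in normal cells (-1.58), and its 3 probes lay between -1.58 and -1.27. The 6 genes stayed lower under each of the 6 other scalings tried, although Sema3a came within 2-fold with normexp background correction (-0.93) and with spike-in scaling (-0.77).

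The membrane semaphorins outside the lymphocyte set were mixed, with 4 of 9 lower and 1 higher. Their median of -0.11 depended on the settings: it was 0.69 with spike-in scaling, -0.70 with the mean over all probes, -0.63 with the mean over probes above background and -1.11 without the repeat probes described below. The 4 lower genes were all of class 6, transmembrane proteins that bind A-type plexins. Sema6a had 84.5 in tumor-draining and 337 in normal cells (-1.94), Sema6d had 102 in tumor-draining and 404 in normal cells (-1.92), and Sema6b had 59.0 in tumor-draining and 208 in normal cells (-1.76). Sema6c was near the threshold, at 122 in tumor-draining and 276 in normal cells (-1.11), and its other probe gave -0.14. Sema6c came within 2-fold with normexp correction (-0.82) and with spike-in scaling (-0.305). Sema6b did so with spike-in scaling only (-0.95). Sema4f was the 1 higher gene, with 74.6 in tumor-draining and 19.98 in normal cells (1.96, 3.90-fold). That call rests on 1 dim probe and came within 2-fold with normexp correction (0.81). Sema5a (1436 in tumor-draining and 1048 in normal cells), Sema5b (171 in tumor-draining and 138 in normal cells) and Sema4g (12.4 in tumor-draining and 14.0 in normal cells) lay within 2-fold. Sema5a and Sema5b had other probes of the opposite sign, of which those above background on both arrays reached -0.85 for Sema5a and -1.22 for Sema5b. Another Sema5b probe, above background on the normal array alone, had 5.37 in tumor-draining and 152 in normal cells, and the mean over all 4 Sema5b probes was -1.80.

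Sema4c, a ligand of Plxnb2, has the widest span among the semaphorins over probes above background on both arrays, and the letters of its probes differ in a visible way. Stretches of 30 bases are shown for its brightest probe, for the probe that lies 5 bases from it on chromosome 1 (mm9), and for the only probe of Ephb3. Capitals mark an unbroken run of alternating T and G.
Sema4c, brightest probe, first 30 of 60 bases, chr1:36605998-36606057: aaTGTGTGTGTGTGTGTGTGTGTGTtgtaa
Sema4c, neighbouring probe, last 30 of 60 bases, chr1:36606063-36606122: gtttgtgcatatatgtgttggtatgcatgt
Ephb3, only probe, last 30 of 60 bases, chr16:21223165-21223224: GTGTGTGTGTGTGTGTGTGTGTGTGTGTGT

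The brightest Sema4c probe, with a TG run of 23 bases, had 15125 in tumor-draining and 7965 in normal cells (0.99). The neighbouring probe, without the run, had 41.4 in tumor-draining and 225 in normal cells (-2.38), and the other probe gave -0.70. These neighbours differ in sign. Ephb3, whose only probe holds a run of 33 bases, had 8137 in tumor-draining and 4107 in normal cells (1.05), just past 2-fold.

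Across the whole array, 71 probes held a TG run of at least 16 bases, and all 71 were above background on both arrays. Their median difference was 1.03, with 39 higher and 0 lower. The 41 probes above background with a CA run of that length had a median of -0.62, with 0 past 2-fold in either direction. The 33930 other probes above background on both arrays had a median of 0.15. Among 33 genes with both a TG-run probe and other measured probes, the run probe was the higher in 30. Among 22 genes with a CA-run probe, the run probe was the lower in 16. The run probes of Sema4c (0.99) and Ephb3 (1.05) lay between the quartiles of all TG-run probes, 0.92 and 1.10. Without the run probes, a comparison chosen after these values were seen, Ephb3 had no probe left, Sema4c was lower, and 40 of 62 members were lower with 5 higher. Over all genes, 16.6% were then lower and 11.3% higher.

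**Figure D3:**
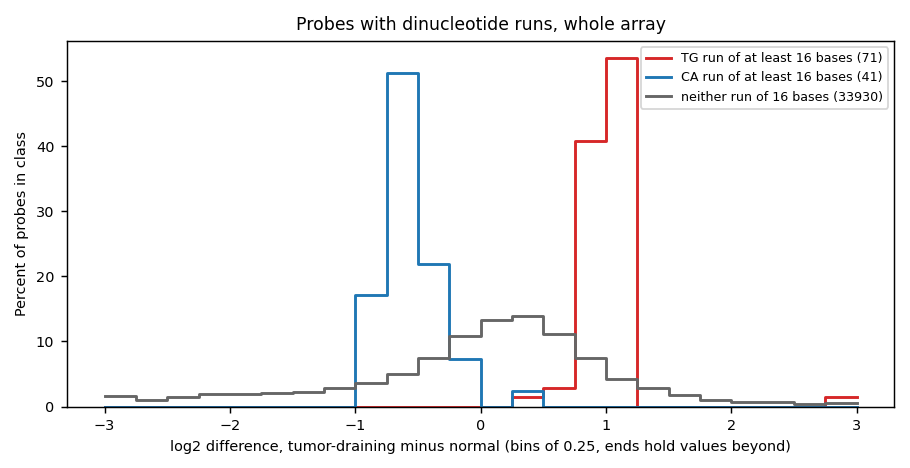
Percent of probes in each bin of 0.25 of the log2 difference, tumor-draining minus normal, for probes above background on both arrays with a TG run of at least 16 bases, with a CA run of at least 16 bases, and with neither. The TG-run probes pile up near 1 (median 1.03) and the CA-run probes below 0 (median -0.62), while the other probes spread around 0.15.

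The lymphocyte semaphorins ran the other way from class 3, with 2 of 4 higher and a median of 0.94. Sema4d, known as CD100 and carried by T cells, had 3014 in tumor-draining and 657 in normal cells (2.26, 4.79-fold higher), and its second probe gave 2.35. It was the highest difference among the 66 members. Sema4a, a co-stimulatory semaphorin of dendritic cells and B cells, had 2228 in tumor-draining and 949.8 in normal cells (1.29). Sema4b had 248 in tumor-draining and 173 in normal cells (0.58). Sema7a is held in the membrane by a lipid anchor, acts through integrins, and is made by stromal cells as well as lymphocytes. It was lower, with 1258 in tumor-draining and 3905 in normal cells (-1.57). Beside them, the T cell and B cell markers had medians of 2.31 and 1.80, and the fibroblastic reticular markers had -1.95. Sema4d and Sema4a stayed at least 2-fold higher under each of the 6 other scalings. Sema7a came within 2-fold with spike-in scaling (-0.77).

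Of the 9 plexins, the receptors of semaphorins, 7 were lower and 2 were higher (median -1.51). Plxna2 had 115 in tumor-draining and 897 in normal cells (-2.90, with -3.09 from a second probe), and Plxna4 had 45.4 in tumor-draining and 333 in normal cells (-2.82). Plxnd1, the receptor of Sema3e in endothelium, had 1334 in tumor-draining and 6318 in normal cells (-2.18), and its second probe gave -1.84. Its ligand Sema3e was not above background on either array. Plxna1, Plxnb2, Plxnb1 and Plxna3 were also lower, between -2.12 and -1.19, and Plxna3 had a second probe at -0.47. Plxnb1 (-0.86 and -0.60) and Plxna3 (-0.70 and -0.38) came within 2-fold with normexp correction and with spike-in scaling. Plxnb2 did so with spike-in scaling only (-0.70). Plxnb1 and Plxnb2, receptors of class 4 semaphorins, had 59.4 and 1504 in tumor-draining cells, against 164 and 4470.4 in normal cells. Plxnc1, the receptor of Sema7a, had 313 in tumor-draining and 119.6 in normal cells (1.45), and its second probe above background gave 1.48. It was thus higher while Sema7a was lower. Plxnb3 had 84.3 in tumor-draining and 31.4 in normal cells (1.49), and came within 2-fold with normexp correction (0.73). Its second probe, above background on the normal array alone, had 3.68 in tumor-draining and 27.4 in normal cells. The mean over both probes turned to -0.67.

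**Figure D4:**
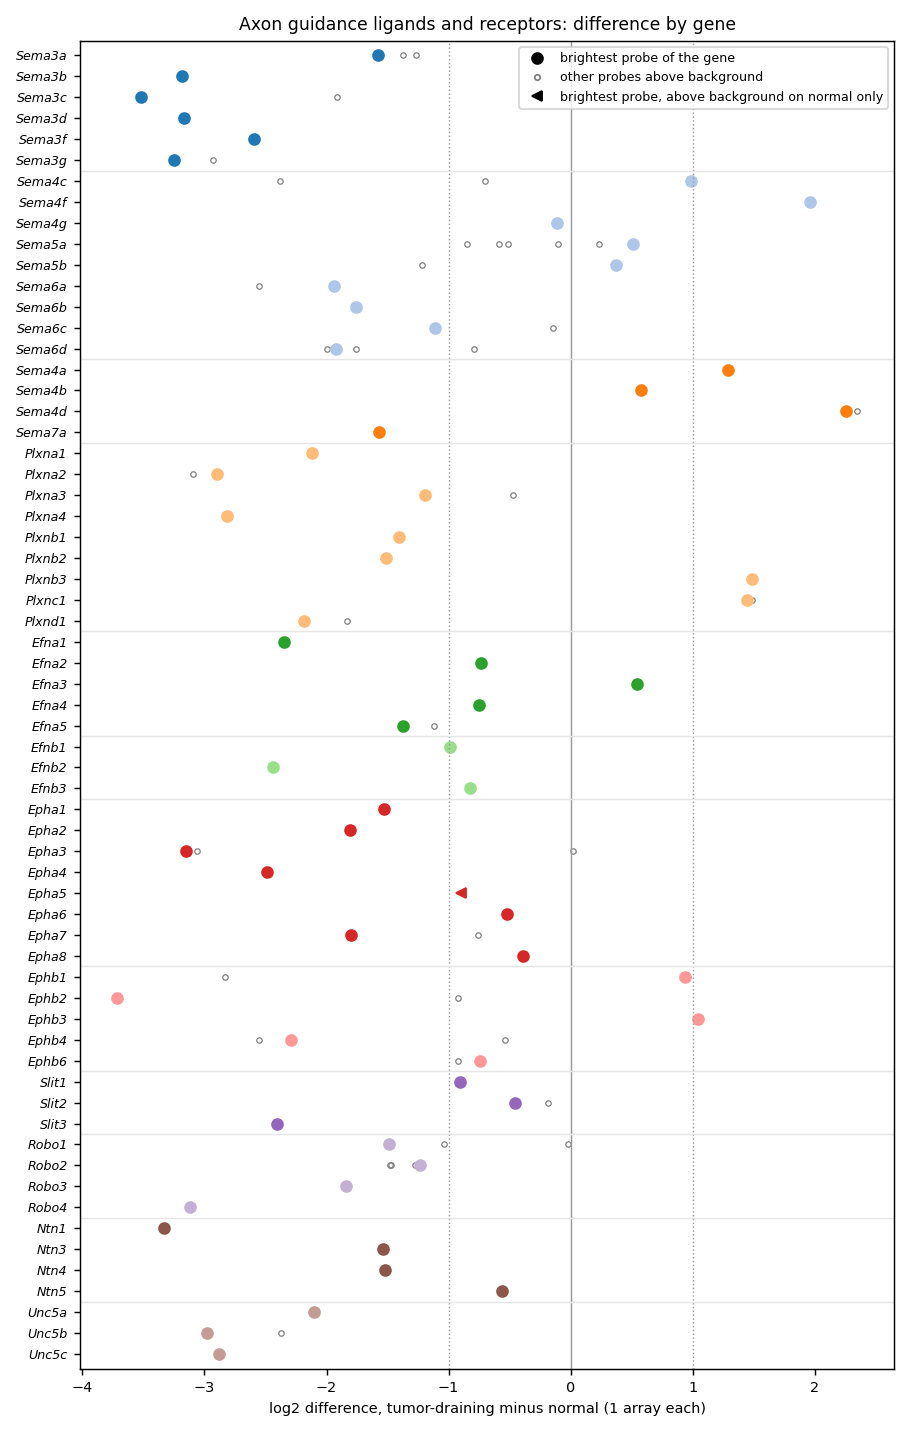
Log2 difference, tumor-draining minus normal, of each measured gene by family (points, read by the brightest probe), with dotted lines at 2-fold in either direction. The 6 higher genes lie to the right of the upper line (Sema4d at 2.26, Sema4f, Plxnb3, Plxnc1, Sema4a and Ephb3 at 1.05), and Ephb2 (-3.72) and Sema3c (-3.52) lie farthest to the left.

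The ephrins, the membrane-bound ligands of Eph receptors, had smaller differences, with 3 of 8 lower and none higher. Efnb2, a marker of arteries and lymphatic valves, had 269.8 in tumor-draining and 1527 in normal cells (-2.44). Efna1, a ligand of Epha2, had 176 in tumor-draining and 931 in normal cells (-2.34). Efna5 had 132 in tumor-draining and 358 in normal cells (-1.37, with -1.12 from a second probe), and came within 2-fold with spike-in scaling (-0.57). The other 5 lay within 2-fold. Efnb1 was nearest to the threshold, with 1034 in tumor-draining and 2141 in normal cells (-0.99). Efnb3 had 24.1 in tumor-draining and 44.6 in normal cells (-0.82), Efna4 had 21.5 in tumor-draining and 37.7 in normal cells (-0.75), and Efna2 had 37.5 in tumor-draining and 65.2 in normal cells (-0.74). Efna3 alone of the family lay above 0, with 102 in tumor-draining and 73.0 in normal cells (0.54). The medians were -0.75 for Efna, which became 0.06 with spike-in scaling, and -0.99 for Efnb.

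Among the EphA receptors, 5 of 8 measured were lower and none was higher (median -1.66). Epha3 had 29.8 in tumor-draining and 276 in normal cells (-3.15), and a second probe gave -3.06, but another gave 0.02. Epha4 had 83.6 in tumor-draining and 489 in normal cells (-2.49). Epha2, the receptor of Efna1, had 339 in tumor-draining and 1240.1 in normal cells (-1.81). Epha7 (15.99 in tumor-draining and 58.0 in normal cells) and Epha1 (17.5 in tumor-draining and 52.7 in normal cells) were lower at dim signals, and both came within 2-fold with normexp correction and with spike-in scaling. Epha6 had 48.0 in tumor-draining and 71.8 in normal cells (-0.52), and Epha8 had 12.4 in tumor-draining and 16.9 in normal cells (-0.39). Epha5 was above background on the normal array only, with 5.76 in tumor-draining and 11.2 in normal cells, which makes it at least 1.30-fold lower.

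The EphB receptors were mixed, with 2 of 5 lower and 1 higher (median -0.74). The median was 0.06 with spike-in scaling, -1.14 with normexp correction and -1.52 without the repeat probe of Ephb3, the 1 higher gene. Ephb2 had the lowest difference of all members, with 41.8 in tumor-draining and 574 in normal cells (-3.72, 13.1-fold lower), but its second probe gave -0.92. Ephb4, the venous receptor of Efnb2, had 272 in tumor-draining and 1389 in normal cells (-2.29), and its other probes gave -2.56 and -0.54. Ephb4 was thus lower together with its ligand Efnb2. Ephb6, a member without kinase activity that is found on T cells, had 477 in tumor-draining and 832 in normal cells (-0.74). Ephb1 had 52.2 in tumor-draining and 28.5 in normal cells (0.94), while its other probe had 13.5 in tumor-draining and 99.9 in normal cells (-2.83). With normexp correction that other probe was the brighter, and Ephb1 was then at -1.14. Ephb3 rests on the repeat probe shown above.

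All 4 Robo receptors were lower (median -1.66), but Robo4 alone of them stayed at least 2-fold lower under each of the 6 other scalings. The median was -0.86 with normexp correction and with spike-in scaling. Robo2 came within 2-fold under both (-0.71 and -0.42), Robo3 with normexp (-0.51) and Robo1 with spike-in scaling (-0.68). Robo4, which is found mainly in blood endothelium and keeps vessels from leaking, had 774 in tumor-draining and 7008 in normal cells (-3.12, 8.68-fold lower). The Robo4 probe spans bases 37221537 to 37221596 of chromosome 9 (mm9), and the Robo3 probe lies near it. Robo3 had 13.7 in tumor-draining and 51.1 in normal cells (-1.84). Robo1 had 72.1 in tumor-draining and 211 in normal cells (-1.49). Its 3 probes above background on both arrays lay between -1.49 and -0.02. Robo2 had 50.9 in tumor-draining and 125 in normal cells (-1.23). Its 4 probes above background on both arrays lay between -1.48 and -1.23. Those above background on the normal array alone gave -2.74 and -1.66. The difference of Robo4 was thus larger than those of the other 3 receptors, and near the median of the blood endothelial markers (-2.98). Those markers include Robo4 itself and ran from -3.54 to -1.17. Of the Robo ligands, Slit3 was lower, with 315 in tumor-draining and 1738 in normal cells (-2.40). Slit1 had 34.0 in tumor-draining and 66.4 in normal cells (-0.90), and Slit2 had 222 in tumor-draining and 318 in normal cells (-0.46), so that only 1 of 3 Slits passed 2-fold.

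Netrins and their Unc5 receptors were lower in 6 of 7 measured genes. Ntn1, the best known netrin, had 25.8 in tumor-draining and 270.3 in normal cells (-3.33, 10.04-fold lower). Ntn3 had 14.3 in tumor-draining and 43.2 in normal cells (-1.54), and Ntn4, a netrin of basement membranes, had 32.9 in tumor-draining and 98.6 in normal cells (-1.52). Both came within 2-fold with normexp correction and with spike-in scaling. Ntn5 had 133 in tumor-draining and 206 in normal cells (-0.56). Unc5b, the Unc5 receptor of endothelium, had 191 in tumor-draining and 1576 in normal cells (-2.98, with -2.37 from its second probe). Unc5c had 15.8 in tumor-draining and 121 in normal cells (-2.88), and Unc5a had 82.1 in tumor-draining and 367 in normal cells (-2.10).

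Where a member had several probes, they mostly pointed the same way. Of 26 members with at least 2 probes above background on both arrays, 10 had all such probes at least 2-fold lower, and 2, Sema4d and Plxnc1, had all of them at least 2-fold higher. Probes of 5 genes (Epha3, Ephb1, Sema4c, Sema5a and Sema5b) differed in sign, though in none of these did probes pass 2-fold in both directions. Plxnb3 (1.49) is outside this count, because its second probe (-2.83) was above background on the normal array alone. In 11 of the 26 the probes spanned more than 1 on the log2 scale. The median SD between probes of a gene was 0.47 over these members and 0.27 over 7599 genes of the array. The SD between repeated spots was far smaller, with a median of 0.053 over 300 probes printed at least 10 times, and neither covers differences between mice. Of all 66 members, 26 had 1 probe on the array, so no such check was possible for them. The other 40 had 2 or more probes, and those with fewer than 2 above background on both arrays were not checked either.

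**Figure D5:**
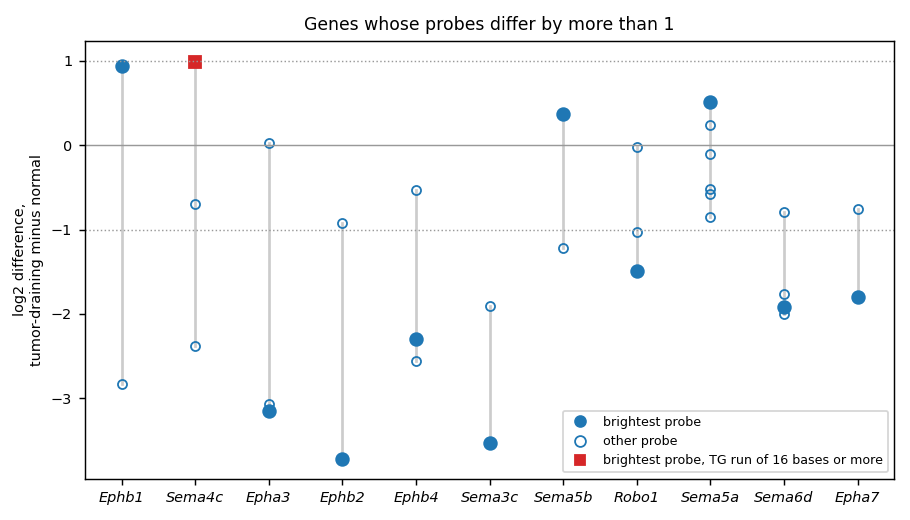
Log2 difference, tumor-draining minus normal, of every probe above background on both arrays (points) for the genes whose probes span more than 1. Ephb1 (0.94 and -2.83), Sema4c (0.99 and -2.38) and Epha3 (0.02 and -3.15) show the widest spans across 0.

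Bright and dim members alike were mostly lower. Of 31 members at or above the median signal of those measured on both arrays, 21 were lower and 4 higher (median -1.92), and of the 31 dimmer members, 18 were lower and 2 higher (median -1.41). All genes of the array in the same signal ranges had medians of 0.13 and 0.10. In the brighter range, 1891 of 12476 genes were lower and 1280 higher. In the dimmer range, 1641 of 9676 were lower and 1173 higher. All 39 lower members kept their sign under each of the 6 other scalings, and 24 stayed at least 2-fold lower in all of them. All 6 higher members kept their sign as well, and Sema4d, Sema4a and Plxnc1 stayed at least 2-fold higher in all. Scaling to spike-in RNA moved the median of all genes to 0.91, and the split of all calls to 84.7% higher, against 41.0% with the 75th percentile. For the members it gave 25 lower and 12 higher, with 32.4% of calls higher against 13.3%, and a median of -0.71.

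The co-receptors and partners of these families were measured from a separate list of 72 genes, chosen with earlier results of these arrays known. Of 71 measured, 32 (45.1%) were lower and 8 (11.3%) were higher, with a median of -0.80, and 0.01 with spike-in scaling. Over all genes 16.5% were lower and 11.5% higher, so the share of higher genes was near that of the array. The 8 include Nrp2 and Itsn1, each read by a probe with a TG run of 28 bases. Among 17 co-receptors and partners, 8 were lower and 5 higher. Kdr, a vascular growth factor receptor that works with neuropilins and plexins, had 621 in tumor-draining and 5119.7 in normal cells (-2.98). Nrcam, an adhesion partner of neuropilins, had 45.6 in tumor-draining and 344 in normal cells (-2.85), and Itga1, an integrin chain of the Sema7a receptor, had 82.8 in tumor-draining and 608 in normal cells (-2.82). Nrp1, the neuropilin of Sema3a, had 1841 in tumor-draining and 10044 in normal cells (-2.39). All its probes above background on both arrays lay between -3.05 and -1.33. Nrp2, the neuropilin of Sema3f, was called higher by its brightest probe (6804 in tumor-draining and 3321 in normal cells, 1.10), which holds a TG run of 28 bases. Its other 2 probes gave -2.81 and -2.31.

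The 5 higher co-receptors and partners were Timd2, L1cam, Tyrobp, Nrp2 and Cd72. Timd2, a receptor of Sema4a in the mouse, had 51.6 in tumor-draining cells and 1.66, not above background, in normal cells, which makes it at least 6.97-fold higher. L1cam, an adhesion partner of Nrp1, had 142 in tumor-draining and 49.1 in normal cells (1.59). Tyrobp, an adaptor that pairs with Trem2 at a plexin complex, had 1621 in tumor-draining and 695 in normal cells (1.28). Cd72, the Sema4d receptor of B cells, had 9469 in tumor-draining and 4628 in normal cells (1.09). Sema4d and Cd72 were thus both higher, while Plxnb1, the other receptor of Sema4d, was lower. Plxnb1 came within 2-fold with normexp correction (-0.86) and with spike-in scaling (-0.60). The netrin receptor Dcc had 53003 in tumor-draining and 59056 in normal cells (-0.09). These signals, the brightest of the pathway list, rest on 1 probe above background on both arrays. Whether that probe reads Dcc alone was not tested. Neogenin, Neo1, had 225 in tumor-draining and 660.3 in normal cells (-1.49).

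Of 8 other ligands measured, 7 were lower and none was higher. Flrt2, a ligand of Unc5 receptors, had 146 in tumor-draining and 1098 in normal cells (-2.85). Vegfa, which shares neuropilins with the class 3 semaphorins, had 422 in tumor-draining and 2789.7 in normal cells (-2.66). Ntng1, a membrane-anchored netrin relative, had 133 in tumor-draining and 649.6 in normal cells (-2.22). Ntng2 had 12.7 in tumor-draining and 11.9 in normal cells (0.17). Among 27 effectors that act at the receptors, 13 were lower and 2 higher. The lowest were Srgap1, a GTPase regulator below Robo receptors (119 in tumor-draining and 799 in normal cells, -2.69), Ngef, an exchange factor below Epha4 (91.8 in tumor-draining and 544 in normal cells, -2.50), and Farp1, a plexin partner (248 in tumor-draining and 1369.97 in normal cells, -2.41). The 2 higher effectors were Itsn1 and Srgap2. The Itsn1 probe (20206 in tumor-draining and 3099 in normal cells, 2.77) holds a TG run of 28 bases. The 5 other Itsn1 probes above background on both arrays lay between -1.96 and -1.06. Srgap2 had 766 in tumor-draining and 392 in normal cells (1.03), read by a probe with a TG run of 14 bases. Its probes above background on both arrays reached down to -0.09.

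The shared cytoskeletal machinery lay near the median of all genes. Among its 19 genes, 4 were lower and 1 was higher, with a median of 0.11. That median was -0.13 with loess scaling and 0.91 with spike-in scaling. Ablim3, an actin-binding protein, had 107 in tumor-draining and 1024 in normal cells (-3.20), and Dpysl3, a collapsin response mediator, had 1762 in tumor-draining and 8210.3 in normal cells (-2.16). Crmp1, of the same family as Dpysl3, had 91.2 in tumor-draining and 27.7 in normal cells (1.78). The GTPases Rhoa (0.00), Rac1 (0.22) and Cdc42 (0.60) lay within 2-fold.

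Promoter letters were not used to choose the members. RefSeq promoter windows (GRCm38.p6, 250 bases before the start to 50 after) were matched by symbol for 57 of the 66 genes, with 73 windows. The GC box GGGCGG was found on either strand in 69.9% of them, against 35.7% of 32851 windows of all genes. The letters TATAAA were found in 2.74% against 13.6%, and CGGAAG in 8.22% against 16.9%. The windows of lower members held the GC box in 70.7% (41 windows of 33 genes). Those of higher members held it in 54.5% (6 of 11 windows, from 6 genes). Several windows of the same gene are not independent. None of these motifs can lie within another, and a match is a stretch of letters, with no binding measured.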

How the data were processed

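RNA from CD45-negative cells of lymph nodes, 1 sample in each group, was labeled with Cy3 and hybridized to 1 array each, per the labels' protocols. In the deposited scanner output, values are linear intensities of spots, from which Agilent Feature Extraction had taken the background (12.0.3.1 per the file headers, while the submitters' processing notes name 10.7 and limma). Probe positions are on mm9, per the file headers, and exon or UTR was not assigned here. A value table deposited by the authors gives log2 values, whose steps are not given in the sources used here and whose direction and centring could not be read from 1-color data beyond its fit to the scanner values (r = 0.9998 and 0.9999 across probes). Its column medians were 4.86 for the tumor-draining array and 4.85 for the normal array. It served as an alternative only.

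From each spot's log2 processed signal, the 75th percentile of its array was subtracted (59305 spots other than controls), 357.9 on the tumor-draining and 373.6 on the normal array. Values of repeated spots were averaged, and each gene was read by its brightest probe, by the mean of both arrays. Above background means that the software's mark stood on 50% or more of a probe's spots, which held for 35570 probes on the tumor-draining and 36783 on the normal array. No member spot was saturated or marked as an outlier. Over the 101 member probes above background on both arrays, the software's error of the signal had a median of 10.2% and reached 22.0%. It was larger for probes not above background. For a gene above background on 1 array, the fold is a bound against the higher of its dim signal and the lowest signal of a probe above background there (8.27 on the tumor-draining and 7.72 on the normal array). With 1 array in each group no test was run, and precision is limited by that number.

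Values are printed for up to 3 highest and 3 lowest differences of each family and of each pathway role, with the others by range or in short. The members, the gene lists and the naming rule were chosen with earlier results of these data known. Neo1, Nrp1, Nrp2, Cd72, Tyrobp, Dcc, Rhoa, Rac1 and Cdc42 are named as direct partners outside that rule. The code that makes the calls was run on simulated arrays with changes far larger than 2-fold and little noise. That run cannot measure the error of calls near 2-fold. The alternatives tried were normexp correction (offset 50), loess (span 0.3) and quantile normalization, scaling to probes above background or to spike-ins, 2 other filters, 2 ways of averaging probes, the authors' table, and genes above background on both arrays only. Probes with TG or CA runs of at least 16 bases were left out in an alternative chosen after seeing the data. The tools were limma 3.58.1 in R 4.3.3, and pandas 2.3.3 and numpy 2.4.6 in Python 3.11.15.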

Additional observations from a re-analysis of the deposited data

How the results depend on the processing

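No paired analysis was possible because each group has 1 array, and for the same reason no replicate could be left out. The counts of 39 lower and 6 higher members became 25 and 12 with spike-in scaling, with a members' median of -0.71. Over all genes, spike-in scaling gave 8.14% lower and 45.2% higher. The stricter signal filter kept 30 members, of which 20 were lower, with a median of -1.87. All genes so filtered were lower in 15.1%. With normexp correction 30 members were lower and 4 higher, with a median of -0.93, against 9.9% lower and 5.6% higher over all genes. Family medians with normexp were -2.88 for Sema3, -0.33 for Efna, -0.53 for Epha, -1.14 for Ephb, -0.41 for Slit, -0.86 for Robo, -0.58 for Ntn and -1.53 for Unc5. With spike-in scaling they were -2.37 for Sema3, 0.69 for the other semaphorins, 1.74 for the lymphocyte semaphorins, -0.70 for Plxn, 0.057 for Efna, -0.18 for Efnb, -0.86 for Epha, 0.065 for Ephb, -0.10 for Slit, -0.86 for Robo, -0.72 for Ntn and -2.08 for Unc5. The spike-ins themselves differed by a median of -0.79, and no source used here says whether equal amounts went in. The stricter filter, which keeps fewer genes, gave -1.85 for Plxn, -1.86 for Efna, -1.71 for Efnb, -2.15 for Epha, -1.43 for Slit and -3.12 for Robo, and no background filter gave -2.49 for Unc5. The mean over all probes gave -2.66 for Sema3, -0.70 for the other semaphorins, -1.17 for Epha and -1.13 for Robo, and the mean over probes above background gave -2.90 for Sema3 and -0.63 for the other semaphorins. Plxnb3 reversed to -0.67 with the mean over all probes, which takes in the probe not above background on the tumor-draining array. Without TG or CA run probes, the other semaphorins had -1.11 and Ephb had -1.52. The cause of the remaining changes was not tested. Of all alternative values of these counts and medians, 138 lay within 1.5 times the reported count or within the median between-probe SD of 0.27 of the reported median, and 41 did not. Dim genes such as Epha1, Epha7, Ntn3 and Robo3 are limited by their signal over background.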
